A study of Danio rerio with 18 samples.

Results

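The opsin genes of the retina were followed here through larval and juvenile growth of zebrafish (Danio rerio) in whole-body RNA. An opsin is the protein part of a visual pigment. It binds a derivative of vitamin A, and light absorbed by that molecule switches the protein on and starts the phototransduction cascade. Rods carry rhodopsin and serve dim light. Cones serve bright light and colour, and each zebrafish cone type is defined by its opsin, which absorbs in the ultraviolet, the blue, the green or the red. Members were chosen by name, and 9 of the 10 names asked for matched a row among the 28870 gene rows of the deposited table. They were the rod gene rho, the ultraviolet gene opn1sw1, the blue gene opn1sw2, the 4 green genes opn1mw1 to opn1mw4 and the red genes opn1lw1 and opn1lw2. The pineal gene exorh was not analysed here.

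The 18 libraries fell into 6 groups of 3, made of each of 2 genotypes at 5, 15 and 30 days post fertilisation (dpf). All fish carried the stl297 allele of scospondin, a gene for the main protein of the Reissner fibre, and the series calls the mutant hypomorphic. Fish labelled het carried it on one chromosome, so the control group was not wild type. Fish labelled maternal zygotic mutant, written MZ from here, were mutant and came from mutant mothers. The labels give no sex, number of fish per library, clutch or hour of collection, and n counts libraries throughout. Nor do they give the mothers of het fish. A difference between MZ and het fish therefore cannot be told apart from one of mother, clutch or hour. In the same way, a difference between ages cannot be told apart from one of clutch or hour. Total counts per library lay between 10178388 and 17141819. Replicates differed by more than counting noise, with a chi-square per degree of freedom between 4.73 and 16.9. All 18 libraries were treated as separate samples. The excess over counting noise cannot tell separate fish from separate libraries of the same RNA. Where libraries of a group share a clutch, p-values measure only the spread between these samples.

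The green opsin genes lie in a tandem cluster, and the blue and red genes in another, while rho and opn1sw1 are in neither. By the gene order that RefSeq gives for GRCz12tu, an assembly used here for names and neighbours alone, opn1mw1, opn1mw2, opn1mw3 and opn1mw4 follow one another with 0 protein-coding genes between neighbours. The blue gene opn1sw2 stands next to opn1lw1, and opn1lw1 next to opn1lw2. Tandem copies are alike in sequence. How the authors' counting treated reads that fit several copies is not stated, so the split of counts within the green and within the red cluster is uncertain, and the lowest copies may be undercounted.

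Opsins were abundant at 5 dpf and held a smaller share of whole-body RNA at 15 dpf. At 5 dpf opn1sw1 ranked between 27 and 64 among all genes by level per kilobase. Levels are given as CPM, counts scaled to a common library size with TMM factors over all 18 libraries. The summed level of the 9 opsins was 9297 ± 1145 CPM in het and 11271 ± 598 CPM in MZ fish at 5 dpf (SD, n = 3 for this and every later mean). At 15 dpf it was 1499.6 ± 532 and 2554 ± 723 CPM, and at 30 dpf 1699 ± 235 and 1793 ± 382 CPM. Opsins took 0.976% ± 0.162 of all counts in het fish at 5 dpf and 0.146% ± 0.0528 at 15 dpf. In whole-body RNA, fewer photoreceptors per body and less opsin RNA per photoreceptor cannot be told apart.

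**Figure D1:**
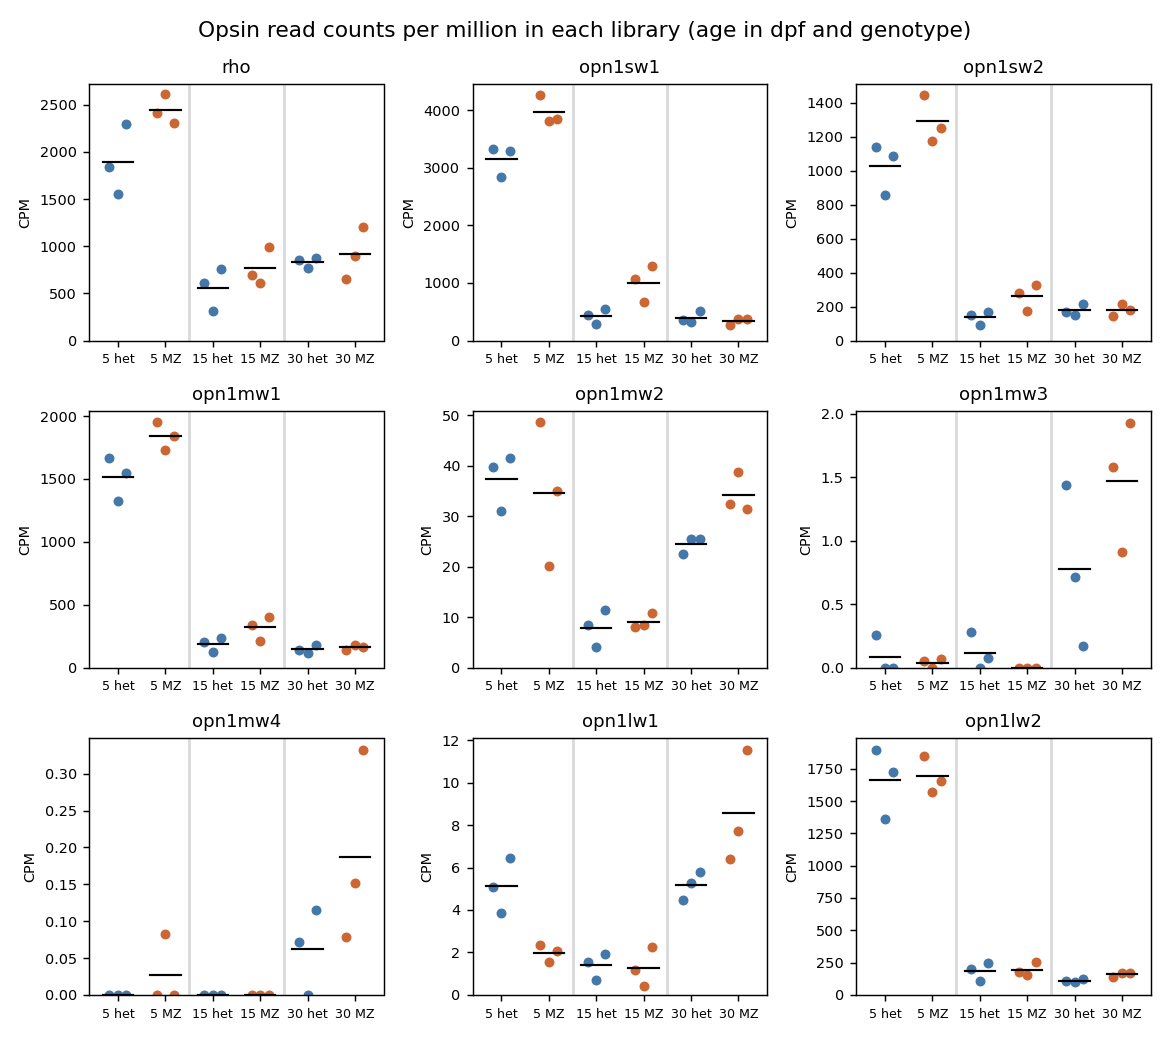
CPM of each of the 9 opsins (vertical axes, linear from 0, a separate scale per gene) in every library, grouped by age in dpf and genotype, with het in blue and MZ in orange; points are libraries and bars are means of 3. The high 5 dpf values of rho, opn1sw1, opn1sw2, opn1mw1 and opn1lw2 contrast with opn1mw3 and opn1lw1, whose highest mean was in MZ fish at 30 dpf. In het fish opn1lw1 was alike at 5 and 30 dpf (means of 5.11 and 5.18 CPM, with overlap). Levels of opn1mw4 were not resolved.

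The rod gene rho encodes rhodopsin. At 5 dpf its level was 1836, 1548 and 2297 CPM in the het libraries and 2407, 2608 and 2303 CPM in the MZ libraries. The groups did not overlap, but the highest het library lay just under the lowest MZ library. At 15 dpf the values were 605, 314 and 756 CPM in het and 693, 614 and 986 CPM in MZ fish, and at 30 dpf 859, 769.8 and 877 CPM against 653, 894 and 1205 CPM. The genotypes overlapped at both later ages.

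The ultraviolet gene opn1sw1 measured 3329, 2849 and 3299 CPM in het and 4262, 3822 and 3839 CPM in MZ libraries, and the groups did not overlap. At 15 dpf it measured 440.4, 279 and 552 CPM in het and 1065, 661 and 1286 CPM in MZ libraries, where every MZ library again lay above every het library. At 30 dpf the values were 358, 321 and 517 CPM in het and 265, 365 and 369.5 CPM in MZ fish, with overlap. In the order of its 6 group means, the 5 dpf groups led and the MZ group at 15 dpf came next, apart from its neighbours. The ranges of the het group at 15 dpf and both groups at 30 dpf overlapped from each to the next.

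The blue gene opn1sw2 measured 1137, 854 and 1089 CPM in het and 1444, 1174 and 1252 CPM in MZ libraries at 5 dpf. At 15 dpf it measured 149, 94.2 and 170.5 CPM in het and 277, 175 and 328 CPM in MZ libraries. The genotypes were apart at both ages, at 15 dpf by a few CPM between the nearest libraries. At 30 dpf they overlapped, with means of 178 ± 33.4 and 179.6 ± 32.6 CPM.

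Of the green genes, opn1mw1 held the largest part of the level per kilobase in every library. Its values were 1667, 1326 and 1548 CPM in het and 1950, 1729 and 1843 CPM in MZ libraries at 5 dpf, without overlap. Those at 15 dpf were 202, 123 and 233 CPM against 340.0, 215 and 405 CPM, and at 30 dpf 141, 113 and 182 CPM against 138, 178 and 167 CPM, with overlap at both ages. The next copy, opn1mw2, measured 37.4 ± 5.58 and 34.5 ± 14.3 CPM in het and MZ fish at 5 dpf, 7.94 ± 3.71 and 9.13 ± 1.56 CPM at 15 dpf, and 24.5 ± 1.68 and 34.1 ± 4.05 CPM at 30 dpf. Its genotypes were apart only at 30 dpf.

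Up to 15 dpf the copies opn1mw3 and opn1mw4 were near or under the floor of 3 counts, and opn1mw4 remained so at 30 dpf. Counts of opn1mw3 were at most 4 in every 5 and 15 dpf library, and 0 in all 3 MZ libraries at 15 dpf. The het libraries had 20, 11 and 3 counts at 30 dpf, and the MZ libraries 20, 12 and 29. Counts of opn1mw4 were at most 1 up to 15 dpf, and 1, 0 and 2 in het and 1, 2 and 5 in MZ libraries at 30 dpf. In the groups where a copy had at most 2 counts per library, 3 counts in a library of mean size corresponded to between 0.194 and 0.271 CPM, a limit that covers counting error only. The group means of opn1mw4 all lay below this range, so its levels were not resolved at this depth.

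The main red gene was opn1lw2. Its values were 1898, 1364 and 1723 CPM in het and 1847, 1572 and 1652 CPM in MZ libraries at 5 dpf, with overlap. The 15 dpf libraries gave 202, 106 and 243 CPM against 181, 152 and 252 CPM, again with overlap. At 30 dpf it measured 108, 98.6 and 125 CPM in het and 137, 169 and 168 CPM in MZ libraries, and every MZ library lay above every het library.

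The other red copy, opn1lw1, was rare and had its own course. It measured 5.06, 3.84 and 6.44 CPM in het and 2.37, 1.57 and 2.05 CPM in MZ libraries at 5 dpf, from counts of 78, 39 and 102 against 45, 19 and 31. Every MZ library lay below every het library there. The 15 dpf values were 1.53, 0.707 and 1.92 CPM against 1.16, 0.429 and 2.25 CPM, with overlap. At 30 dpf the order was the reverse of that at 5 dpf, with 4.47, 5.28 and 5.78 CPM in het and 6.40, 7.73 and 11.6 CPM in MZ libraries.

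To compare opsins with each other, CPM was divided by the length that the table gives for each gene. On this scale opn1sw1 led in het fish at 5 dpf with 1778 ± 151 CPM per kilobase, followed by rho with 1218 ± 243 and opn1lw2 with 919 ± 151. The ranges of rho and opn1lw2 overlapped, though within each of these libraries rho lay above opn1lw2. The levels of opn1mw1 and opn1sw2 were 677 ± 77.3 and 671 ± 98.7 CPM per kilobase and overlapped. By 30 dpf rho led in het fish with 537 ± 37.0 CPM per kilobase, ahead of opn1sw1 with 224 ± 58.8 and opn1sw2 with 116 ± 21.8, and none of these neighbours overlapped. At 15 dpf rho led in het and opn1sw1 in MZ fish by the mean, and in both genotypes their ranges overlapped between libraries. Within each het library rho lay above opn1sw1, at 389 against 248, 202 against 157 and 486 against 310 CPM per kilobase. In the MZ libraries rho was at 446 against 600, 395 against 372 and 634 against 724 CPM per kilobase, so the order differed between them.

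The make-up of the opsin pool differed between ages, with a larger rod share in older fish. Rhodopsin made up 23.0% ± 2.55 of the summed level per kilobase in het fish at 5 dpf, 40.3% ± 2.42 at 15 dpf and 52.9% ± 3.87 at 30 dpf. The MZ shares were 24.5% ± 2.13, 33.5% ± 3.49 and 54.0% ± 5.09. In het fish the red share was 17.4% ± 1.16, 11.6% ± 0.486 and 6.28% ± 0.112. In MZ fish it was 14.5% ± 0.562, 7.36% ± 0.562 and 8.69% ± 0.964. The log2 ratio of rho to the summed 8 cone rows was -1.75 ± 0.205, -0.57 ± 0.146 and 0.17 ± 0.224 in het fish at the 3 ages. In MZ fish it was -1.63 ± 0.165, -0.99 ± 0.227 and 0.23 ± 0.298. Without division by length the 30 dpf ratio was -0.029 ± 0.226 in het and 0.033 ± 0.297 in MZ fish, so the sign of the het mean at 30 dpf turns with this choice. No single het library changed sign there. The MZ replicates 1 and 2 did, from 0.045 and 0.075 to -0.156 and -0.120. Such shares do not depend on how libraries are scaled against each other, and they are given without a test.

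**Figure D2:**
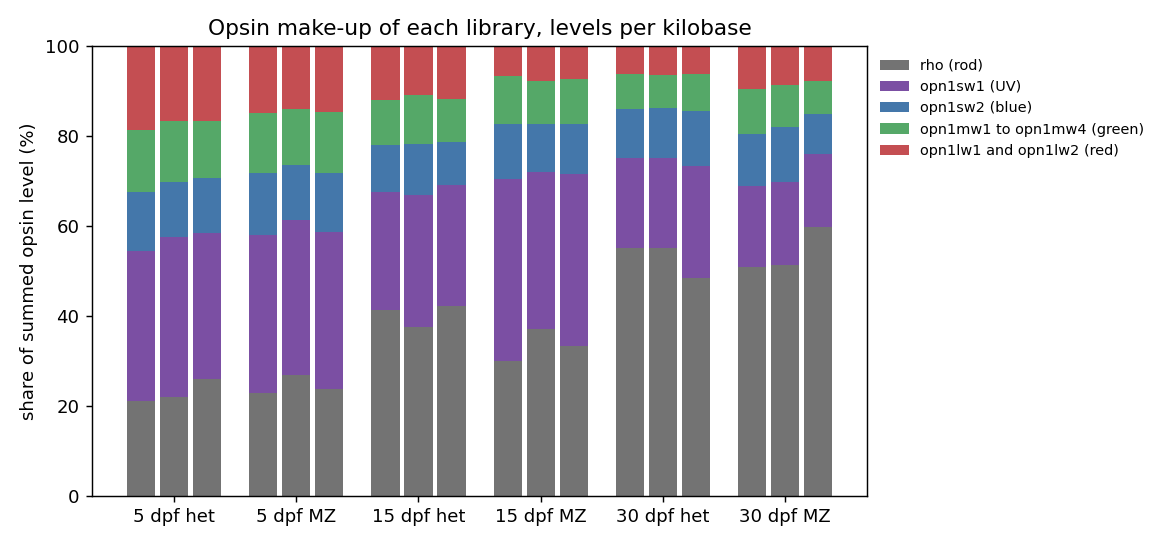
Share of each opsin class in the summed opsin level per kilobase (vertical axis, percent) of each of the 18 libraries, in groups of 3 by age and genotype. The rod share was 23.0% in het fish at 5 dpf and 52.9% at 30 dpf, and at 15 dpf the ultraviolet share was 37.8% in MZ against 27.5% in het fish.

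From 5 to 15 dpf rho, opn1sw1, opn1sw2, opn1mw1, opn1mw2 and opn1lw2 fell in both genotypes. Of the 8 opsins tested in het fish, 7 were called lower (edgeR's quasi-likelihood test, Benjamini-Hochberg adjusted p under 0.05 over all genes tested), where 20% of all genes were called lower, 19.7% higher and 39.6% in either direction. All 7 had library ranges that did not overlap between the ages, as did 50.5% of all genes. The exception was opn1mw3, and opn1mw4 had 0 counts in those libraries. In MZ fish 6 of 9 opsins tested were called lower, where 29.3% of all genes were called lower, 27.7% higher and 57% in either direction, and where 63.5% did not overlap. The log2 fold change in het fish was -1.75 (SE 0.24, edgeR adjusted p = 3.77e-05) for rho and -2.88 (SE 0.19, adjusted p = 2.71e-08) for opn1sw1. It was -3.16 (SE 0.23, adjusted p = 7.56e-08) for opn1lw2. In MZ fish the same genes changed by -1.70 (SE 0.15), -2.01 (SE 0.19) and -3.14 (SE 0.16), with edgeR adjusted p of 9.2e-07, 1.28e-06 and 7.65e-09. The copy opn1lw1 fell in het fish (log2 fold change -1.87, SE 0.32, edgeR adjusted p = 0.000276). In MZ fish its log2 fold change was -0.65 (SE 0.42) and was not called (adjusted p = 0.207), though without MZ 15 dpf replicate 3 it was -1.27 and was called.

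From 15 to 30 dpf the minor copies opn1mw2 and opn1lw1 rose in both genotypes. In het fish 2 opsins rose and 1 fell, where 10.6% of all genes were called higher, 10.9% lower and 21.5% in all, and where 38.4% did not overlap between the ages. The opsins that rose were opn1mw2 (log2 fold change 1.62, SE 0.26, edgeR adjusted p = 0.000997) and opn1lw1 (1.89, SE 0.30, adjusted p = 0.00110). The one that fell was opn1lw2 (-0.73, SE 0.23, adjusted p = 0.0417). Its call was lost without het 15 dpf replicate 1 or 3, without het 30 dpf replicate 1 or 2, and in DESeq2. The ranges of opn1lw2 overlapped between the ages in het fish, while those of opn1mw2, opn1lw1 and the uncalled rho did not. In MZ fish 3 rose and 2 fell, where 10.2% of all genes were called higher, 9.08% lower and 19.3% in all, and where 38.1% did not overlap. The risers were opn1mw2 (1.96, SE 0.16, adjusted p = 1.84e-05), opn1lw1 (2.76, SE 0.42, adjusted p = 0.00106) and opn1mw3. With 0 counts in every MZ library at 15 dpf, opn1mw3 is given against a floor of 3 counts per library (edgeR adjusted p = 0.00127). Its mean at 30 dpf was 5.44 times this floor of 0.271 CPM, and its MZ libraries at 30 dpf ran from 0.909 to 1.93 CPM. Those that fell were opn1sw1 (-1.54, SE 0.22, adjusted p = 0.000769) and opn1mw1 (-0.94, SE 0.20, adjusted p = 0.00792). None of the called opsins overlapped between the ages in MZ fish, nor did opn1mw4, which was not called. Rhodopsin had log2 fold changes of 0.58 (SE 0.23, adjusted p = 0.103) in het and 0.32 (SE 0.22, adjusted p = 0.341) in MZ fish and was called in neither.

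The split within each cluster was as follows. The copy opn1mw2 held 3.22% ± 0.229 of the green level per kilobase in het fish at 5 dpf, 5.23% ± 0.983 at 15 dpf and 18.8% ± 3.77 at 30 dpf. In MZ fish it held 2.43% ± 0.854, 3.88% ± 1.04 and 22.0% ± 1.94. The copy opn1lw1 held 0.326% ± 0.0614 of the red level in het fish at 5 dpf, 0.780% ± 0.0674 at 15 dpf and 4.77% ± 0.588 at 30 dpf. In MZ fish it held 0.125% ± 0.0164, 0.639% ± 0.322 and 5.40% ± 1.24. With the copies of a cluster summed, the green and red totals were not called between 15 and 30 dpf in het fish (edgeR adjusted p = 0.580 and 0.0563). In MZ fish the green total fell (log2 fold change -0.69, adjusted p = 0.0299) and the red total was not called (adjusted p = 0.511).

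**Figure D3:**
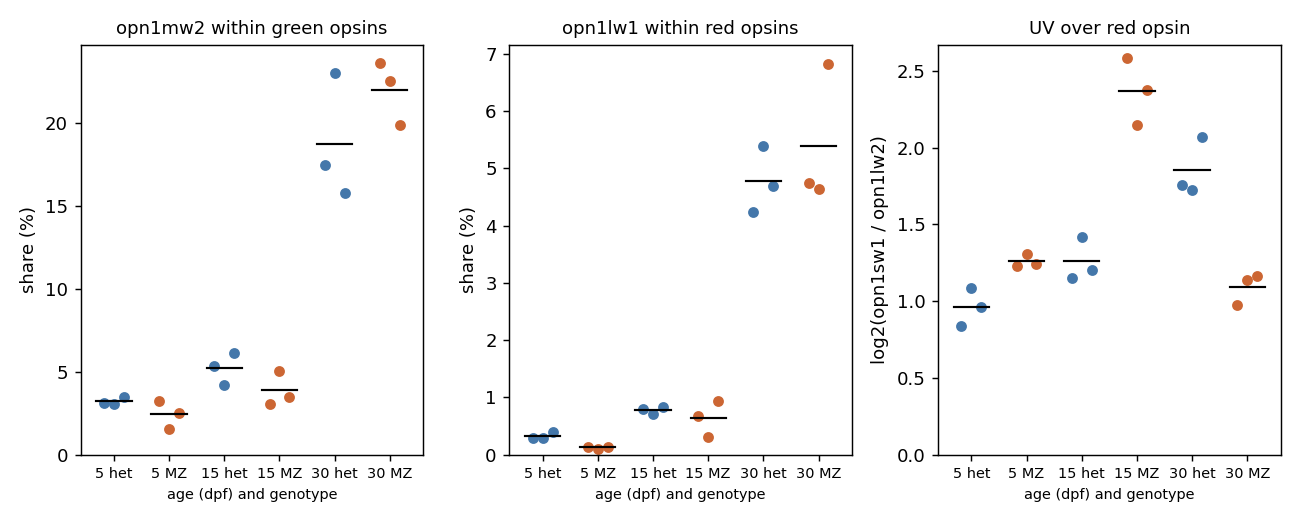
Share of opn1mw2 in the green and of opn1lw1 in the red opsin level per kilobase (percent, left and middle) and log2 ratio of opn1sw1 to opn1lw2 per kilobase (right) by age in dpf and genotype; points are libraries, het in blue and MZ in orange, and bars are means of 3. Both minor copies had their highest share at 30 dpf, and at each age the ratio of ultraviolet to red did not overlap between genotypes.

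The genotypes were compared at each age, to ask which opsins differed between MZ and het fish. At 5 dpf 4 opsins were higher in MZ fish and 1 was lower, of 9 tested, against 21.1% of all genes called higher and 19.6% lower, or 40.7% in all. These 5 were also the opsins whose libraries did not overlap between genotypes, as 52.1% of all genes did not. Those higher were rho (log2 fold change 0.43, SE 0.14, edgeR adjusted p = 0.0196), opn1sw1 (0.40, SE 0.11, adjusted p = 0.0102), opn1sw2 (0.40, SE 0.12, adjusted p = 0.0186) and opn1mw1 (0.35, SE 0.11, adjusted p = 0.0207). The gene lower in MZ fish was opn1lw1 (-1.28, SE 0.25, adjusted p = 0.00113), while its neighbour opn1lw2 was not called (0.09, SE 0.13, adjusted p = 0.582). In 1 fit over all 18 libraries none of them was called (adjusted p = 0.257 for rho, 0.268 for opn1sw1, 0.236 for opn1sw2 and 0.319 for opn1mw1), with log2 fold changes of 0.28 to 0.37, while opn1lw1 kept its call. With 1 library left out at a time, opn1sw1 and opn1lw1 kept their calls in all 6 fits. The call of rho was lost without het replicate 1, het replicate 2 or MZ replicate 2, that of opn1sw2 without het replicate 2 or MZ replicate 1, and that of opn1mw1 without het replicate 2, MZ replicate 1 or MZ replicate 3.

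At 15 dpf the ultraviolet gene opn1sw1 was higher in MZ fish by 1.24 on the log2 scale (SE 0.24, edgeR adjusted p = 0.0421), the 1 opsin called of 8 tested, where 0.445% of all genes were called higher and 0.891% in all. Its libraries and those of opn1sw2 did not overlap between genotypes, as 23.3% of all genes did not. The log2 fold changes of the others were 0.91 (SE 0.22, adjusted p = 0.0666) for opn1sw2, 0.77 (SE 0.23, adjusted p = 0.110) for opn1mw1, 0.44 (SE 0.25, adjusted p = 0.356) for rho and 0.08 (SE 0.24, adjusted p = 0.896) for opn1lw2. The call of opn1sw1 was lost without het replicate 1, het replicate 2 or MZ replicate 3 (log2 fold changes 1.26, 1.01 and 1.02). Replicate 2 had the lowest summed opsin level of its group in both genotypes. Without both of these libraries opn1sw1 was still called, at 1.24 on the log2 scale (SE 0.18, edgeR adjusted p = 0.0244), an alternative chosen after seeing the data.

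At 30 dpf the red gene opn1lw2 was higher in MZ fish (log2 fold change 0.54, SE 0.12, edgeR adjusted p = 0.0484), the 1 opsin called of 9, where 1.11% of all genes were called higher, 2.2% lower and 3.3% in all. The libraries of opn1mw2, opn1lw1 and opn1lw2 did not overlap between genotypes, as 27.9% of all genes did not. Uncalled values were 0.75 (SE 0.24, adjusted p = 0.108) for opn1lw1, 0.50 (SE 0.12, adjusted p = 0.0570) for opn1mw2, 0.17 (SE 0.17, adjusted p = 0.594) for opn1mw1, 0.03 (SE 0.16, adjusted p = 0.922) for opn1sw2 and -0.24 (SE 0.19, adjusted p = 0.492) for opn1sw1. Rhodopsin was at 0.16 (SE 0.19, adjusted p = 0.662). The call of opn1lw2 was lost in each of the 6 fits that left out 1 library (log2 fold changes from 0.45 to 0.64), with RLE factors (adjusted p = 0.0516), with the replicate number as a block (adjusted p = 0.0584) and in 1 fit over all libraries (adjusted p = 0.145).

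**Figure D4:**
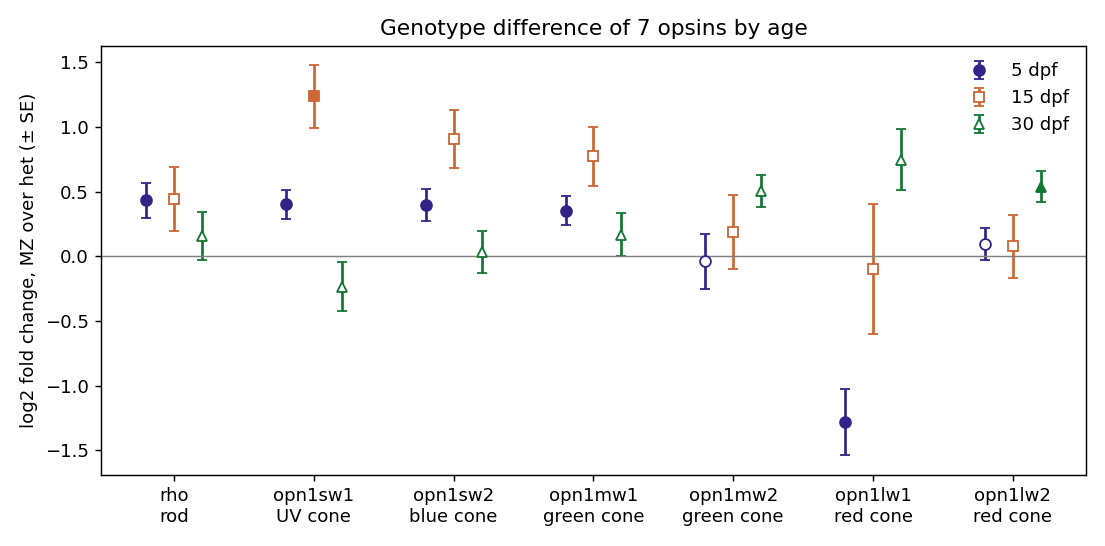
Log2 fold change of MZ over het (vertical axis, with SE from edgeR) for 7 opsins, from the rod gene through ultraviolet, blue and green to red, at 5 dpf (circles), 15 dpf (squares) and 30 dpf (triangles); filled symbols were called at an adjusted p under 0.05. The 15 dpf values were 1.24 for opn1sw1 and 0.08 for opn1lw2, and the 30 dpf values were -0.24 and 0.54.

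The ratio of ultraviolet to red opsin does not depend on scaling between libraries. The log2 ratio of opn1sw1 to opn1lw2 per kilobase was 0.96 ± 0.126 in het and 1.26 ± 0.0409 in MZ fish at 5 dpf. At 15 dpf it was 1.26 ± 0.142 against 2.37 ± 0.219, and at 30 dpf 1.85 ± 0.191 against 1.09 ± 0.1003. All MZ libraries lay above all het libraries at 5 and 15 dpf and below them at 30 dpf. This pair was chosen after its values were seen, so the ratio is a description without a test.

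Whether the genotype difference itself changed with age was tested for each opsin over all 18 libraries. The interaction was called for opn1sw1 (edgeR F = 10.96, adjusted p = 0.00425) and opn1lw1 (F = 9.97, adjusted p = 0.00605), where 33.3% of all genes were called. Both calls held in all 18 fits that left out 1 library. The interaction was not called for opn1sw2 (adjusted p = 0.0626), opn1mw1 (adjusted p = 0.208), opn1lw2 (adjusted p = 0.366) or rho (adjusted p = 0.739). Without MZ 15 dpf replicate 2 it was called for 4 opsins in place of 2.

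The partners of the opsins in the cascade were read from lists of known genes. Of 13 rod genes tested at 5 dpf, MZ fish had 8 called higher and 1 lower, where 21.1% of all genes were called higher and 19.6% lower. The median log2 fold change of the list was 0.37, against -0.0028 over all genes. The calls included gnb1a and gnb1b, which did not follow rho with age. Their het means were 211 and 270 CPM at 5 dpf and 249 and 335 CPM at 15 dpf, against 1894 and 559 CPM for rho. Of 24 tested cone genes, 14 were higher and 4 lower, with a median of 0.45. Among rod genes, the arrestins sagb and saga, which shut rhodopsin off, rose by log2 fold changes of 1.01 (SE 0.12, edgeR adjusted p = 2.02e-05) and 0.80 (SE 0.15, adjusted p = 0.000884). Among cone genes, pde6h, for the inhibitory subunit of the cone phosphodiesterase, rose by 1.62 (SE 0.14, adjusted p = 1.34e-06). Genes of guanylate cyclase activators, which restore cGMP after light, moved both ways, with guca1e at 3.60 (SE 0.36, adjusted p = 4.14e-06) and guca1a at -3.64 (SE 0.26, adjusted p = 2.15e-07). The CPM of guca1e was 0.356 ± 0.143 in het and 4.31 ± 1.05 in MZ fish. That of guca1a was 6.92 ± 0.474 in het and 0.522 ± 0.0570 in MZ fish. Both fold changes thus rest on a low level in 1 of the genotypes.

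At 15 dpf, 3 of 22 tested cone genes were called higher and 0 of 12 rod genes were called. Over all genes 0.445% were called higher and 0.891% in all. The medians of the cone and rod lists were 0.75 and 0.37 against -0.0051 over all genes. At an unadjusted p under 0.05 there were 3640 genes at this age. DESeq2 called 636 of the 11446 genes to which it gave an adjusted p. All 22 cone genes had a log2 fold change above 0, as did 9532 of all 19307 genes tested. Those called were pde6h (1.43, SE 0.19, edgeR adjusted p = 0.0152), the cone arrestin gene arr3b (1.26, SE 0.20, adjusted p = 0.0242) and the transducin gene gngt2b (0.84, SE 0.17, adjusted p = 0.0432). At 30 dpf the medians were -0.08 for 23 cone and 0.14 for 13 rod genes. There edgeR called 0 of each, and 3.3% of all genes. Over all genes at that age 4454 had an unadjusted p under 0.05, and DESeq2 called 1224 of 18816. Of other retinal genes at 15 dpf, edgeR called 1 of 18 outer segment and structure genes (unc119b) and 1 of 16 visual cycle genes (rgra), against 0.891% of all genes. It also called 2 of 18 inner retina genes, cabp5a and cabp5b, which are genes for calcium-binding proteins of bipolar cells. Without het replicate 1, het replicate 2 or MZ replicate 3, edgeR called 2, 2 and 3 genes in all. Most of the calls named here for 15 dpf were therefore lost in those fits.

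Several transcription factors set the opsin a photoreceptor makes, and of the 16 tested at 5 dpf, 6 passed the test with higher and 2 with lower levels in MZ fish, a number near the 40.7% called over all genes. The shared photoreceptor factor crx rose (1.04 on the log2 scale, SE 0.15, edgeR adjusted p = 0.000103), as did the retinal homeobox gene rx1 (1.31, SE 0.13, adjusted p = 3.01e-06). The rod factor nr2e3 fell by 0.81 on the log2 scale (SE 0.15, adjusted p = 0.000782). Factors of single cone types were looked up for their roles, outside the naming rule. The thyroid hormone receptor gene thrb, needed for red cones, rose (0.92, SE 0.17, adjusted p = 0.000660). The blue cone factor foxq2 (0.41, SE 0.31, adjusted p = 0.305), the ultraviolet cone factor tbx2b (0.08, SE 0.11, adjusted p = 0.600) and the green cone factor six7 (0.08, SE 0.14, adjusted p = 0.667) were not called. The paralogue tbx2a rose (0.55, SE 0.13, adjusted p = 0.00371). None of the 16 factors tested at 15 dpf or the 15 tested at 30 dpf was called by edgeR.

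Genes of the circadian clock and of light responses moved with genotype at 5 dpf and were called at neither later age. At 5 dpf 14 of 26 such genes were called higher and 7 lower, against 21.1% and 19.6% of all genes, with a median log2 fold change of 0.63. The light-induced gene per2 measured 4.63 CPM in het and 71.6 CPM in MZ fish (log2 fold change 4.04, SE 0.13, edgeR adjusted p = 9.17e-11), and the photolyase gene cry5 was higher in MZ fish by 2.83 (SE 0.21, adjusted p = 2.91e-07). For both genes het fish at 5 dpf had the lowest mean of all groups. In het and MZ fish per2 measured 85.1 and 71.0 CPM at 15 dpf, and 46.2 and 32.9 CPM at 30 dpf. The means of cry5 were 2.99 and 20.6 CPM at 5 dpf, 25.6 and 21.5 CPM at 15 dpf, and 11.7 and 12.3 CPM at 30 dpf. By contrast cry1ba, also of this list, was highest in MZ fish at 5 dpf (64.7 CPM). The clock output gene dbpb fell by 1.62 on the log2 scale (SE 0.0962, adjusted p = 5.73e-08). The pineal gene aanat2, for the rhythmic enzyme of melatonin synthesis, fell by 0.92 on the log2 scale (SE 0.21, adjusted p = 0.00298), while rbp4l, another gene of the pineal list, rose by 0.92 (SE 0.13, adjusted p = 6.38e-05). In all 6 of the 11 pineal genes were called higher and 1 lower, against the same shares of all genes. At 15 and 30 dpf edgeR called 0 of the 26 clock and light genes, with medians of -0.10 and -0.18. The part of these genes in the opsin differences at 5 dpf, or in those between 5 and 15 dpf, was not tested.

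Markers of some other eye and nerve cells also moved beside the opsins. The summed level of the pan-neuronal list was 777 to 1163 CPM in het and 1545 to 1929 CPM in MZ libraries at 5 dpf, where 10 of 11 tested genes were called higher, against 21.1% of all genes. It was 967 to 1146 against 1009 to 1436 CPM at 15 dpf and 1198 to 1504 against 804 to 960 CPM at 30 dpf. There 7 of 11 were called lower, against 2.2% of all genes. Without het replicate 2 or MZ replicate 1 at 30 dpf, edgeR called 0 of all genes lower, so these 7 calls were lost. The cone list ran from 2240 to 3051 CPM in het and from 3372 to 4119 CPM in MZ libraries at 5 dpf. It ran from 700.3 to 1100 against 1253 to 2137 CPM at 15 dpf. At 30 dpf its ranges were 962 to 1460 against 888 to 1220 CPM and overlapped. The lens list ran from 4933 to 6347 against 4211 to 5688 CPM at 5 dpf, with 4 of 9 genes called lower, against 19.6% of all genes and 40.7% in either direction. At 30 dpf it ran from 1341 to 3091 CPM in het and from 3050 to 5639 CPM in MZ libraries, which overlapped. There 3 of 12 genes were called higher, where 1.11% of all genes were. These were the crystallin genes crygm4, crybb3 and crygs3 (edgeR adjusted p = 0.00160, 0.0197 and 0.0390), with mean levels of 0.190, 0.695 and 0.913 CPM in het and 9.999, 4.35 and 6.53 CPM in MZ fish. The het level of crygm4 is near that of 3 counts, so no fold is given. All 3 were too low to be tested at 5 and 15 dpf, where 9 lens genes were tested. A gene this low in het fish can pass the count filter through its MZ libraries alone. The number of calls in the lens list therefore cannot be set against the share of all genes. Without het replicate 2 or MZ replicate 1 at 30 dpf, edgeR called 1 and 2 of all genes higher. The 3 crystallin calls therefore did not all hold in those fits. The inner retina list ran from 408 to 434 against 506 to 558 CPM at 5 dpf. Its ranges overlapped at 15 dpf, with 296 to 344 against 343 to 460 CPM. They also overlapped at 30 dpf, with 241 to 307 against 191 to 261 CPM. The pigment epithelium and melanin list ran from 326 to 376 against 308 to 357 CPM at 5 dpf, with overlap. Of its 9 tested genes, 2 were called higher and 2 lower, against 21.1% and 19.6% of all genes. Of the markers, 1 of 12 pan-neuronal genes was at 0 in every group and 1 of 12 lens genes in both groups at 15 dpf, and no gene of the rod, cone or inner retina lists was at 0 in any group. The part of cell numbers in the opsin differences was not tested.

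**Figure D5:**
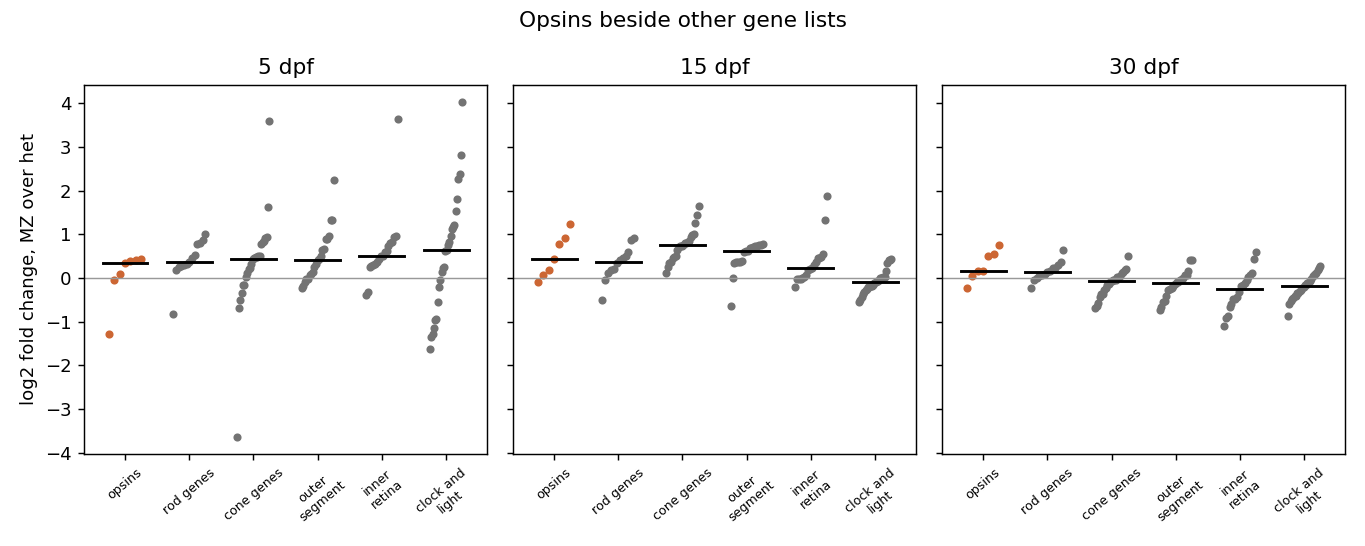
Log2 fold change of MZ over het (vertical axis) for 7 opsins in orange and for the tested genes of 5 lists in grey, sorted within each list, at 5, 15 and 30 dpf; bars are medians. The median of the cone list was 0.45, 0.75 and -0.08 at the 3 ages.

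Among genes outside the opsins, the likeness of 2 opsins to every gene with a mean of at least 1 CPM was measured as the root mean square difference of log2(CPM + 1) profiles over the 18 libraries, each centred on its mean. The 5 nearest of 18967 genes to rho were elovl4b (0.182), rom1b (0.205), si:ch211-113d22.2 (0.228), ckmt2a (0.266) and cdhr1a (0.273). The 5 nearest to opn1sw1 were gngt2b (0.334), si:ch211-81a5.8 (0.345), gnb3b (0.363), prph2b (0.422) and prph2a (0.462). Among opsins, opn1mw1 (0.229) was nearer to opn1sw1 than any of these genes, while rho stood at 0.874 from opn1sw1. The cone genes opn1sw2 (0.357) and opn1lw2 (0.503) were nearer to it than rho. The low copies opn1mw2 (1.41), opn1mw4 (1.52), opn1lw1 (1.82) and opn1mw3 (1.84) were farther from it than rho. The values describe these libraries, which share their depth and age structure.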

How the data were processed

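RNA of whole fish was measured in 18 libraries, prepared with Trizol, a column and a SMARTer kit per the labels' protocols. The authors deposited raw counts per gene name. The submitters' processing notes name cutadapt, STAR 2.5.4b, featureCounts 1.6.3 and build GRCz10; settings for strand and shared reads are not given in the sources used here. The deposited table's gene length was used for levels per kilobase, and no columns of other samples were present (0). Genotypes (separately at each age) and neighbouring ages were compared with edgeR 4.0.16 in R 4.3.3: filterByExpr (minimum count 10, opsins always kept), TMM, glmQLFTest, Benjamini-Hochberg over all genes, threshold 0.05. The SE is the log2 fold change divided by the square root of F. On simulated counts for MZ against het at 5, 15 and 30 dpf (19538, 19044 and 19699 genes), 85.5%, 85% and 58% of 200 genes changed 2-fold were recovered, and 6.04%, 6.59% and 4.92% of the calls were false. Only these 200 well-counted genes were changed, with noise drawn independently per gene. In the data 40.7% of genes were called at 5 dpf, so these rates need not hold for the comparisons here. Alternatives were RLE factors, DESeq2 1.42.0, no filter, a replicate block, 1 fit over all libraries, summed copies and leaving out libraries. Of 224 entries in 12 lists, 206 matched. Named genes were the opsins and up to 3 called genes per list and age, those with the smallest adjusted p in each direction. Members and lists were chosen with earlier results of these data known. The profiles of the nearest genes used a pseudocount of 1.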

Additional observations from a re-analysis of the deposited data

Results flagged for a closer look

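The genotype difference changed with age for 21 of the opsins and list genes named in the genotype comparisons, of which opn4b is described below. The test was edgeR's genotype by age interaction over all 18 libraries, with adjustment over all genes. It called 33.3% of all genes, and further genes of the lists were among them, such as prph2a (adjusted p = 0.02094), named above for its likeness to opn1sw1. Most of the 21 were named for a call between genotypes, so their number cannot be set against that share. Among the opsins these were opn1sw1 (adjusted p = 0.004245) and opn1lw1 (adjusted p = 0.006052). The log2 fold change of opn1sw1 was 0.40, 1.24 and -0.24 at 5, 15 and 30 dpf, and that of opn1lw1 was -1.28, -0.10 and 0.75.

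Among genes of phototransduction and photoreceptor structure they were pde6h (adjusted p = 0.0001758), guca1a (adjusted p = 6.287e-06), guca1e (adjusted p = 0.0008523), arr3b (adjusted p = 0.005166) and unc119b (adjusted p = 0.0377). Of the transcription factors, nr2e3 (adjusted p = 0.003283), rx1 (adjusted p = 0.007966) and thrb (adjusted p = 0.01824) were called. The inner retina genes were cabp5a (adjusted p = 8.073e-06) and cabp5b (adjusted p = 0.0009973).

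From the other lists, edgeR called the pineal list genes rbp4l (adjusted p = 0.02484) and aanat2 (adjusted p = 0.03685). The non-visual opsin genes opn4b (adjusted p = 0.0004272) and rgra (adjusted p = 7.297e-05) were called too. So were the clock and light genes per2 (adjusted p = 1.206e-10), dbpb (adjusted p = 2.851e-05) and cry5 (adjusted p = 3.203e-07). The lens genes crygm4 (adjusted p = 0.002645) and crybb3 (adjusted p = 0.002381) were called as well.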

How the results depend on the processing

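Of the opsin fold changes recomputed under the alternatives other than summed copies, 513 kept direction and side of the threshold, 29 lost and 18 gained a call, and 19 changed sign. For MZ against het at 5 dpf, 5 opsins were called, 1 in one fit over all libraries, and 2 to 5 with 1 library left out. At 15 dpf 172 genes were called, 636 by DESeq2, 543 with no filter, 77 with the replicate block, 278 in one fit, 15 without replicate 2 of both genotypes (added after seeing the data), and 2 to 926 with 1 library left out; opsins numbered 1, and 3 with no filter, 3 with the replicate block, 2 in one fit and 0 to 2 with 1 library left out. At 30 dpf 660 genes were called, 1224 by DESeq2, 1766 in one fit and 1 to 1113 with 1 library left out; opsins numbered 1, then 0 with RLE factors, 2 by DESeq2, 0 with the replicate block, 0 in one fit and 0 to 1 with 1 library left out. From 15 to 30 dpf in het fish 3 opsins were called, 7 with the replicate block and 0 with copies summed, and in MZ fish 5, and 2 with copies summed. The interaction was called for 2 opsins, and for 2 to 4 with 1 library left out. For MZ against het DESeq2 gave an adjusted p to 11446 genes at 15 dpf and 18816 at 30 dpf. The edgeR fits gave one to 19307 and 19980. Without division by length the log2 rod to cone ratio was -1.98, -1.86 and -0.79 in het 5 dpf, MZ 5 dpf and het 15 dpf fish, and the 30 dpf values became -0.029 (het, 0.17 with length) and 0.033 (MZ, 0.23 with length). The shift of this ratio follows from the lengths used. They were 1555 bases for rho, against 1777 for opn1sw1, 2237 for opn1mw1, 1809 for opn1lw2 and 1531 for opn1sw2. The cause of the shifts between fits was not tested.

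A summed cluster is dominated by opn1mw1 or opn1lw2, so it is a value of the cluster and no test of a minor copy. Its sign was opposite to that of 1 or more minor copies in these cases. For MZ against het the green total was at 0.34 and the red at 0.092 at 5 dpf, and the red at 0.075 at 15 dpf. In het fish the green total was at -2.99 from 5 to 15 dpf, and the green at -0.18 and the red at -0.68 from 15 to 30 dpf. In MZ fish the green total was at -0.69 and the red at -0.18 from 15 to 30 dpf. Without replicate 2 of both genotypes at 15 dpf, opn1mw2 was at -0.072 and opn1lw2 at -0.046. With 1 library left out, uncalled values that changed sign ranged at 5 dpf from -0.37 to 0.22 for opn1mw2 and from -0.040 to 0.19 for opn1lw2. At 15 dpf they ranged from -0.13 to 0.53 for opn1mw2, -0.74 to 0.27 for opn1lw1 and -0.20 to 0.33 for opn1lw2. At 30 dpf they ranged from -0.085 to 0.33 for rho and -0.11 to 0.20 for opn1sw2. In het fish they ranged from -1.14 to 3.81 for opn1mw3 from 5 to 15 dpf and from -0.32 to 0.15 for opn1sw1 from 15 to 30 dpf.

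Replicate numbers are shared between groups, but in 0 of the 7 comparisons were all pair correlations of deviations over 0.1, so the block is reported here only as an alternative; every library correlated best with its own number in 2 of the 7. Depth limits opn1mw3 and opn1mw4, which were near 3 counts or fewer in most libraries.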

Other observations

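Opsins outside the rods and cones, which serve light sensing in the brain, inner retina and skin, were read as a list of non-visual opsins. In MZ fish at 5 dpf, edgeR called 9 of 19 tested genes higher and 2 lower, where 21.1% of all genes were higher and 19.6% lower, with a median log2 fold change of 0.82. Their summed level was 53.6 to 62.9 CPM in het and 91.7 to 108.8 CPM in MZ libraries. The melanopsin gene opn4b rose (log2 fold change 2.83, SE 0.28, edgeR adjusted p = 3.63e-06), from 1.09 ± 0.322 to 7.22 ± 1.78 CPM, as did rgra, for a retinal G protein-coupled receptor opsin (1.69, SE 0.18, adjusted p = 8.65e-06). The gene si:ch211-223f7.1, which RefSeq names opn8b, fell by 0.62 on the log2 scale (SE 0.17, adjusted p = 0.00966). At 15 dpf rgra alone was called of 17 tested (0.97, SE 0.19, adjusted p = 0.0421), where 0.445% of all genes were called higher and 0.891% in all. At 30 dpf edgeR called 0 of 17, against 3.3% of all genes, with a median of -0.34.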
